A study of Mus musculus with 4 samples.

Results

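Genes of the semaphorin, plexin, neuropilin, netrin, Unc5, Slit, Robo and ephrin families were followed in mouse primary osteoblasts, the bone-forming cells, after treatment with BMP2, LOXL2 or both. The 51 listed members were found through the gene name that the array design gives a probe, and 72 of the 55681 non-control probes carried such a name. A probe entered the analysis if the scanner software placed it well above background in 2 or more arrays of the 4, and the kept probe with the highest mean stood for its gene. This left 48 members among 24041 genes. Of the 48, 47 were well above background on all 4 arrays. The exception was Plxnb3, which was not above it with BMP2 alone. The netrin Ntn4, the netrin receptor Unc5d and the Robo receptor Robo4 passed on fewer than 2 arrays and were not tested.

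The 4 treatments lasted 72 h in 10% serum and had 1 single-colour Agilent array each: BMP2 at 200 ng/ml plus LOXL2 at 4 µg/ml, BMP2 alone, LOXL2 alone, and no added protein (untreated). BMP2 is a growth factor that drives bone and cartilage formation, while LOXL2, an enzyme of the lysyl oxidase family, cross-links extracellular collagen. The labels call the cells osteoblasts where BMP2 was given and pre-osteoblasts where it was not, and they do not give the age, strain or number of the mice or say whether cultures were separate preparations. The design text states the purpose as finding regulators of osteoblast differentiation under BMP2. No treatment was replicated, so a BMP2 effect rests on 2 arrays with the protein against 2 without it. Every p-value takes its error from the gap between the BMP2 changes with and without LOXL2, and from a variance shared over all genes. It does not measure the spread between replicate cultures.

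Semaphorins are secreted or membrane-bound guidance cues, named from their role in steering axons, that signal through plexins. Secreted class 3 semaphorins mostly need a neuropilin as co-receptor. Netrins act through Dcc and Unc5 receptors, Slits through Robo receptors, and ephrins through Eph receptors on the neighbouring cell, with signals running in both directions. In mouse bone, Sema3a made by osteoblasts restrains osteoclasts, the cells that resorb bone, Sema4d made by osteoclasts acts on Plxnb1 of osteoblasts to hold back bone formation, and ephrin-B2 with the receptor Ephb4 links both cell types.

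The arrays were alike in depth, with 60.4% to 62.2% of spots well above background and a 75th percentile of intensity from 710.5 to 742.9. Osteoblast markers were present on every array. All 10 listed markers (Runx2, Sp7, Alpl, Bglap, Ibsp, Col1a1, Col1a2, Spp1, Dlx5, Pth1r) were well above background on all 4. Of these, 6 rose at least 2-fold with BMP2, namely Sp7, Alpl, Bglap, Ibsp, Dlx5 and Pth1r. Summed signals of marker lists are given per array as multiples of its 75th percentile. For the 10 osteoblast markers the sum was 1105 with BMP2 plus LOXL2 and 1153 with BMP2, against 1124 with LOXL2 and 1120 untreated. Col1a2 made up most of the osteoblast sum. For 10 of 10 chondrocyte markers, all of which rose with BMP2, the sum was 367 with BMP2 plus LOXL2 and 240 with BMP2, against 62.3 with LOXL2 and 53.7 untreated. Of these, Matn1 passed the filter only through the 2 arrays with BMP2, where it is high. Col10a1 and Matn3 were not above background untreated. For 10 of 10 macrophage and leukocyte markers, of which 4 fell, the sum was 9.72 and 10.1 on the same arrays with BMP2, against 12.1 and 13.0 without. For 7 of 10 endothelial markers, of which Vwf and Egfl7 rose and Cdh5 and Pecam1 fell, it was 33.9 and 35.4 with BMP2, against 33.7 and 34.6 without. Most of that sum was Kdr, and Tie1, Emcn and Cldn5 did not pass the background filter. For 9 of 10 nerve and glia markers, of which 4 rose, it was 33.0 and 30.4 with BMP2, against 29.4 and 27.5 without, and Elavl3 did not pass. For 5 of 8 osteoclast markers, of which Ctsk rose and Ocstamp fell, it was 126 and 127 with BMP2, against 97.5 and 93.7 without, and Calcr, Dcstamp and Mmp9 did not pass. Ctsk made up most of the osteoclast sum, at 89.3 and 91.3 with BMP2 against 63.9 and 64.1 without, and Acp5 most of the rest. The part of these cell types in the changes below was not tested, and in bulk RNA fewer cells of a type and less RNA per cell cannot be told apart.

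With BMP2, 11 of the 48 guidance genes rose and 11 fell in limma, at a Benjamini-Hochberg adjusted p under 0.05 over all 24041 genes. That is 22.9% in each direction, where 10.3% of all genes rose and 9.97% fell (20.3% in either direction). Fitted changes of at least 2-fold were reached by 7 members that rose and 6 that fell, against 2.27% and 3.01% of all genes. The median of the absolute fitted change was 0.43 on the log2 scale for the members and 0.20 for all genes, while the signed medians were 0.00 and 0.02. Ligands and receptors were split unequally. Among 32 ligands 4 rose (12.5%) and 9 fell (28.1%), and among 16 receptors 7 rose (43.8%) and 2 fell (12.5%). Of the 9 ligands that fell, 6 were class 3 semaphorins. The ligands include the ephrins, but the receptors leave out the Eph receptors, of which 1 rose and 3 fell among 11, as given below. This difference between ligands and receptors was not tested.

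Promoters were examined for 42 members found in the RefSeq promoter table (GRCm38.p6), in 57 windows of 250 bases before a start site. Both strands were searched for GGCGCC, a GC-rich SMAD element that reads the same on either strand, and it was found in 12 windows (21.1%), against 9.59% of all 32851 windows. Among members that rose it was in 2 of 12 windows, and among those that fell in 1 of 10. Those windows cover 9 of the 11 members that rose and 8 of the 11 that fell. The called members Plxna4, Slit1, Sema3b, Sema3f and Efnb3 had no window and were not searched. The SMAD palindrome GTCTAGAC was in 0 windows, against 0.167% of all. AACCACA, bound by RUNX factors, or its complement TGTGGTT was in 1 (1.75%), against 4.40%. ACGTG, the core of the hypoxia element, or its complement CACGT was in 8 (14.0%), against 16.6%. The motifs share no positions in the windows printed here. The 3 called members with GGCGCC and the members with the largest rise and fall, which hold none of these motifs, are printed 5′ to 3′ with motifs in capitals. The windows are chr5:17574566-17574815, plus strand, for Sema3c, chr1:194619579-194619828, plus strand, for Plxna2, chr8:8661243-8661492, minus strand, for Efnb2, chr10:60831582-60831831, minus strand, for Unc5b and chr5:13396534-13396783, plus strand, for Sema3a.
Sema3c: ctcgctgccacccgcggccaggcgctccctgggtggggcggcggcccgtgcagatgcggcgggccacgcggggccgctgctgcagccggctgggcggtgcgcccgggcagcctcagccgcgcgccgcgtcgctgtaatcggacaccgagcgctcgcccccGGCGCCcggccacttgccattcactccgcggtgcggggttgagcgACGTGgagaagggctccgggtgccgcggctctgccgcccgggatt
Plxna2: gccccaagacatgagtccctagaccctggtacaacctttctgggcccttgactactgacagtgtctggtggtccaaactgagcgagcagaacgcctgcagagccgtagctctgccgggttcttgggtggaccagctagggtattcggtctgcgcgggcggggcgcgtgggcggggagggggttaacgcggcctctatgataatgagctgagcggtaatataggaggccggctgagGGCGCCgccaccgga
Efnb2: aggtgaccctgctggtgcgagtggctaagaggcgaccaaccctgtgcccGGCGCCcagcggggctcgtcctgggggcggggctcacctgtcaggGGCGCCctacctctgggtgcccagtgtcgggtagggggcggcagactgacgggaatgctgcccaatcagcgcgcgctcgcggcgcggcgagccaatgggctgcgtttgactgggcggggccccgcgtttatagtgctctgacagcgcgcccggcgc
Unc5b: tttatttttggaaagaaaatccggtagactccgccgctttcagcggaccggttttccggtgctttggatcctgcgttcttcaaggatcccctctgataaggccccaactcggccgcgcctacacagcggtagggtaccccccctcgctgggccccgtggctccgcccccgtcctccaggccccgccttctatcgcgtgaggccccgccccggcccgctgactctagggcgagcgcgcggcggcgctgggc
Sema3a: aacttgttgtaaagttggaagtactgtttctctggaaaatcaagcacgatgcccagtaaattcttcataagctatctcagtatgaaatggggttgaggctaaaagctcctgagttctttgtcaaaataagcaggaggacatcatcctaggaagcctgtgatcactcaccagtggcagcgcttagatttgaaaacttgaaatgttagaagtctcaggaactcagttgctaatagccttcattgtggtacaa

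**Figure D1:**
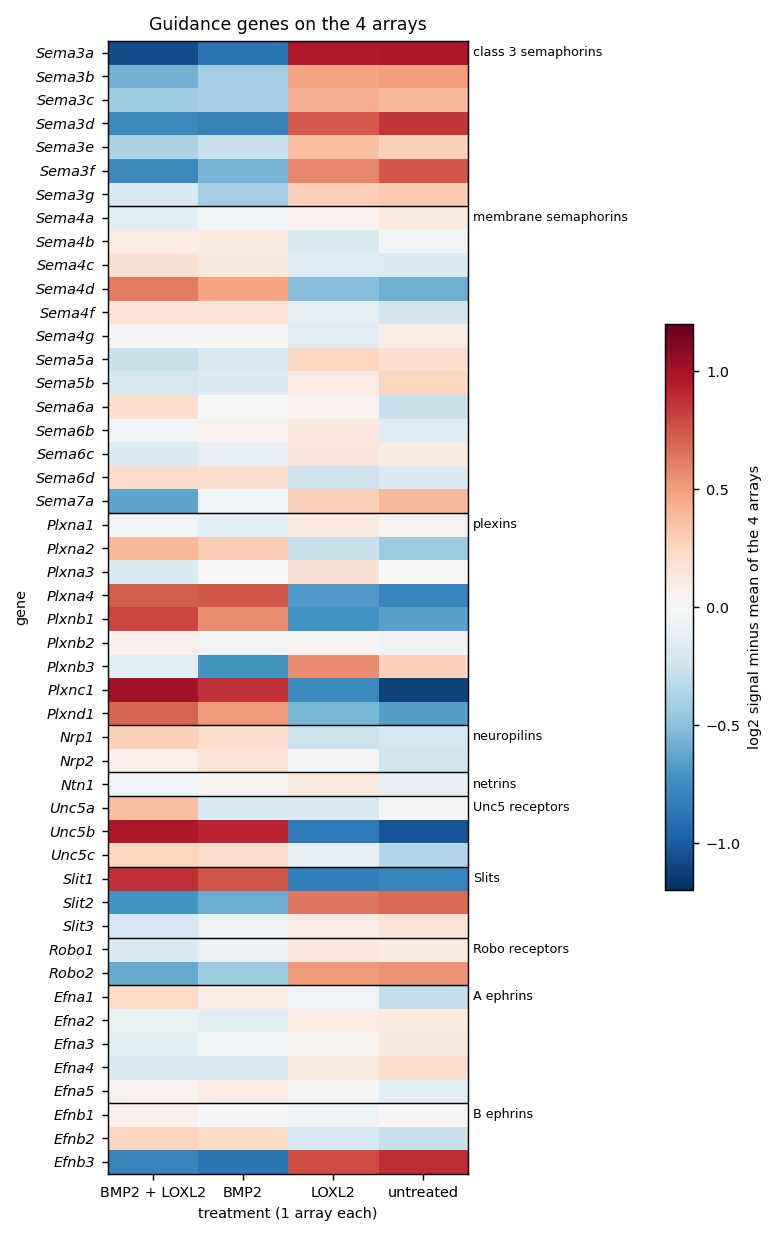
Signal of the 48 guidance genes on the 4 arrays. Rows are genes grouped by family, columns are the treatments (1 array each), and colour is the log2 signal of a gene minus its mean over the 4 arrays. All 7 class 3 semaphorins are lower in the 2 columns with BMP2, and Plxna4, Plxnb1, Plxnc1, Plxnd1, Unc5b and Slit1 are higher there. Of all genes, 32.8% are lower and 38.1% higher on both arrays with BMP2 than on both without it.

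**Figure D2:**
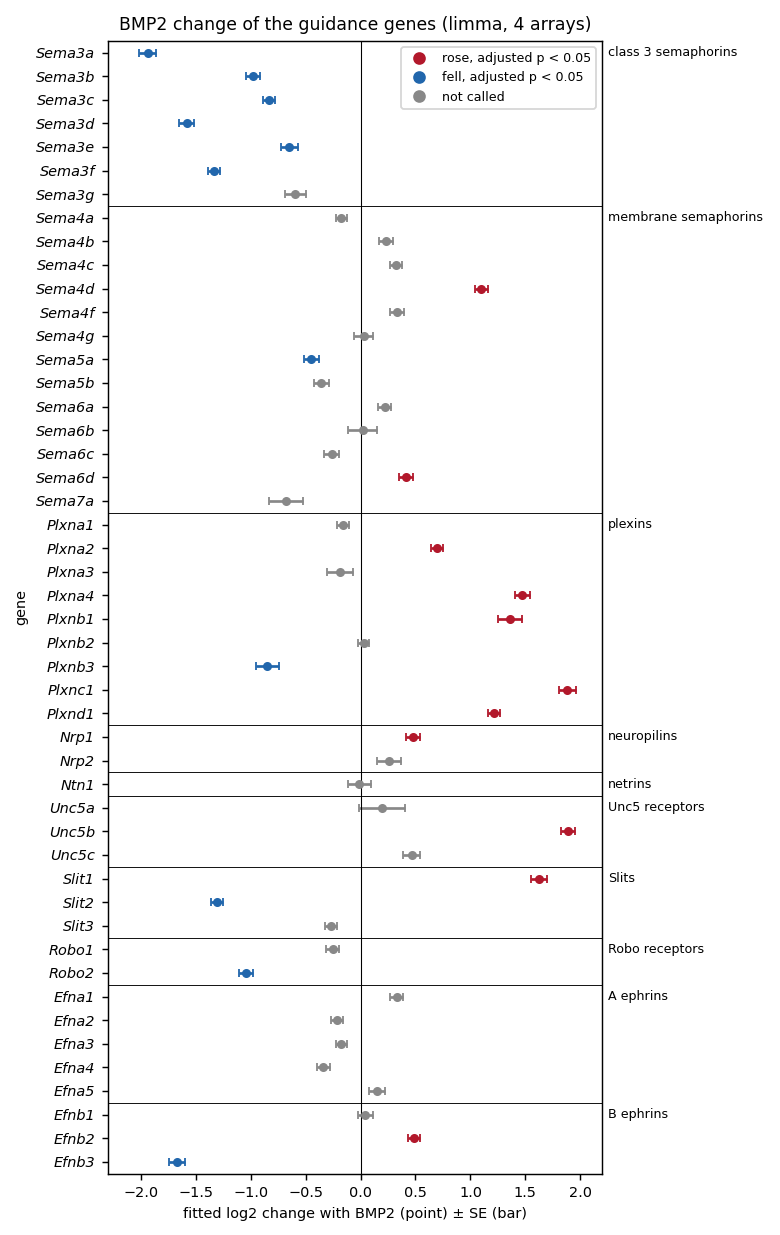
Fitted log2 change with BMP2 (points) and its standard error (bars) for the 48 guidance genes by family, from limma over 4 arrays. Of the points, 11 to the right (red) and 11 to the left (blue) pass an adjusted p of 0.05, from Unc5b at 1.88 to Sema3a at -1.94.

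Secreted class 3 semaphorins fell together. Of 7 measured, 6 fell and 0 rose in limma, where 9.97% of all genes fell, with a median log2 change of -0.98. An unadjusted p under 0.05 was found for 7 of 7, and for 10323 of all 24041 genes. Array signals are given from here on in P75 units, which are multiples of the 75th percentile of the non-control spots of that array. They compare a probe with itself across arrays and not with other probes. Sema3a, the osteoprotective ligand of Nrp1, was at 0.473 P75 units with BMP2 plus LOXL2 and 0.540 with BMP2, against 1.93 with LOXL2 and 1.94 untreated. Both arrays with BMP2 were thus far below both without it, and those within each pair were close. In 32.8% of all genes both arrays with BMP2 were below both without it. Sema3a fell by 1.94 ± 0.08 on the log2 scale (value ± SE of the limma fit, adjusted p = 0.0206), which is 3.83-fold. Its other probe fell less, by 1.23 ± 0.18, with an adjusted p = 0.0581 when each probe was fitted on its own.

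Sema3d, a cue of neural crest and cardiovascular development, was at 0.145 P75 units with BMP2 plus LOXL2 and 0.142 with BMP2, against 0.413 with LOXL2 and 0.447 untreated. It fell by 1.58 ± 0.07 (limma adjusted p = 0.0206). Sema3f, which signals through Nrp2, was at 2.41 and 2.80 P75 units on the combined and BMP2 arrays, against 6.19 with LOXL2 and 6.90 untreated. It fell by 1.33 ± 0.06 (adjusted p = 0.0206). For both genes the arrays with BMP2 were below those without it and did not overlap them, as for 32.8% of all genes. Smaller falls were found for Sema3b (0.98), Sema3c (0.83) and Sema3e (0.65), a ligand that binds Plxnd1 without a neuropilin, with adjusted p from 0.0249 to 0.0376. With normexp background correction Sema3e had -0.37. The 2 probes of Sema3c fell alike, by 0.83 and 0.95. Sema3g had a fitted change of -0.60 with an adjusted p = 0.0518, and its probes disagreed in sign, the other probe having 0.30.

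Among the falling class 3 genes, Sema3d, Sema3a and Sema3e were neighbours on chromosome 5 among genes kept, with Sema3c farther along it. Probe positions in the files (mm9) are chr5:12586981-12587040 for Sema3d, chr5:13602462-13602521 for Sema3a, chr5:14256598-14256656 for Sema3e and chr5:17235981-17236040 for Sema3c. By the gene order of RefSeq on GRCm38.p6, Sema3d, Sema3a and Sema3e were the 3 genes kept among 17 annotated from the first to the last of them. Between Sema3e and Sema3c lay 7 other genes that were kept, with fitted changes from -0.45 to 0.19. The smallest adjusted p among these 7 was 0.098, that of Speer4d, and Hgf, a growth factor, had -0.06. On chromosome 9, Sema3b and Sema3f have probes at chr9:107500686-107500745 and chr9:107583833-107583892. The G protein subunit Gnai2 and the transporter Slc38a3 lie between them. Gnai2 had a change of -0.23 (adjusted p = 0.0805) and Slc38a3 one of 1.04 ± 0.81 (adjusted p = 0.406). Sema3g, on chromosome 14, has no class 3 neighbour.

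Membrane-bound semaphorins did not move as a group. Of 13 measured, 2 rose (15.4%) and 1 fell (7.69%), with a median of 0.03. These shares are near the 10.3% and 9.97% of all genes. Sema4d was at 0.406 P75 units with BMP2 plus LOXL2 and 0.364 with BMP2, against 0.184 with LOXL2 and 0.175 untreated. Both arrays with BMP2 were above both without it, as for 38.1% of all genes. Sema4d rose by 1.10 ± 0.06 (limma adjusted p = 0.0219), or 2.14-fold. The class 6 member Sema6d, a ligand of Plxna1 in heart development, rose by 0.41 ± 0.06 (adjusted p = 0.0491), a call lost with the deposited value table (adjusted p = 0.0516). Sema5a, whose ectodomain carries thrombospondin repeats, fell by 0.45 ± 0.07 (adjusted p = 0.0492), a call lost when each probe was fitted on its own (adjusted p = 0.0631). The GPI-anchored Sema7a had -0.68 ± 0.15 with an adjusted p = 0.0794. It stood at 0.757 P75 units with BMP2 plus LOXL2 and 1.13 with BMP2, against 1.43 with LOXL2 and 1.54 untreated, so that the combined array was the lowest. The 9 other members, Sema4a, Sema4b, Sema4c, Sema4f, Sema4g, Sema5b, Sema6a, Sema6b and Sema6c, were not called and had changes from -0.36 to 0.33. For Sema6c, however, the probe not chosen for the gene fell by 1.12 ± 0.06 (adjusted p = 0.0308 over probes), where the chosen one had -0.26.

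Plexins, the semaphorin receptors, mostly rose. Of 9 measured, 5 rose (55.6%) and 1 fell (11.1%), beside 10.3% and 9.97% of all genes, with a median of 0.70. Plxnc1, the receptor of Sema7a, was at 4.45 P75 units with BMP2 plus LOXL2 and 4.05 with BMP2, against 1.29 with LOXL2 and 1.02 untreated. It rose by 1.88 ± 0.08 (limma adjusted p = 0.0206), or 3.69-fold. Its other probe had 1.30 ± 0.35 and an adjusted p = 0.113 over probes. Plxna4, a partner of neuropilins in Sema3a signalling, was at 1.78 and 1.80 P75 units on the combined and BMP2 arrays, against 0.672 with LOXL2 and 0.621 untreated. It rose by 1.47 ± 0.07 (adjusted p = 0.0206).

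Plxnb1, the receptor of Sema4d, was at 0.168 P75 units with BMP2 plus LOXL2 and 0.142 with BMP2, against 0.0586 with LOXL2 and 0.0615 untreated. It rose by 1.36 ± 0.11 (limma adjusted p = 0.0273), and by 0.63, under 2-fold, with normexp background correction. Plxnd1, known as the Sema3e receptor of blood vessels, was at 10.5 and 9.26 P75 units on the combined and BMP2 arrays, against 4.45 with LOXL2 and 4.09 untreated. It rose by 1.21 ± 0.06 (adjusted p = 0.0206), and its other probe by 0.92 ± 0.08. For these 4 plexins no array without BMP2 reached the level of an array with it, as for 38.1% of all genes. Plxna2 rose by 0.70 ± 0.06 (adjusted p = 0.0275). A further probe that the files name Plxna2 is placed on chromosome 14, away from the chosen one on chromosome 1, and had -0.25. With the mean of both, the change was 0.22 and the call was lost (adjusted p = 0.0903).

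The exception among plexins was Plxnb3, a Sema5a receptor, for which the fit gave -0.85 ± 0.10 (limma adjusted p = 0.0394). Its probe is dim, with signals from 0.0162 to 0.0395 P75 units, and was not above background with BMP2 alone, so that this change has no exact size. With normexp background correction it was -0.22. Plxna1 was at 4.76 P75 units with BMP2 plus LOXL2 and 4.49 with BMP2, against 5.26 with LOXL2 and 5.08 untreated. Its change of -0.16 had a 95% interval from -0.34 to 0.02 (adjusted p = 0.136). Plxnb2 had 0.03 with an interval from -0.15 to 0.20, and Plxna3 -0.19 with one from -0.59 to 0.22. Of the neuropilins, Nrp1 was at 0.740 and 0.703 P75 units on the combined and BMP2 arrays, against 0.510 with LOXL2 and 0.527 untreated. It rose by 0.48 ± 0.06 (adjusted p = 0.0431), a call lost when each probe was fitted on its own (adjusted p = 0.0561). Nrp2 had 0.26 ± 0.11 with an adjusted p = 0.200.

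**Figure D3:**
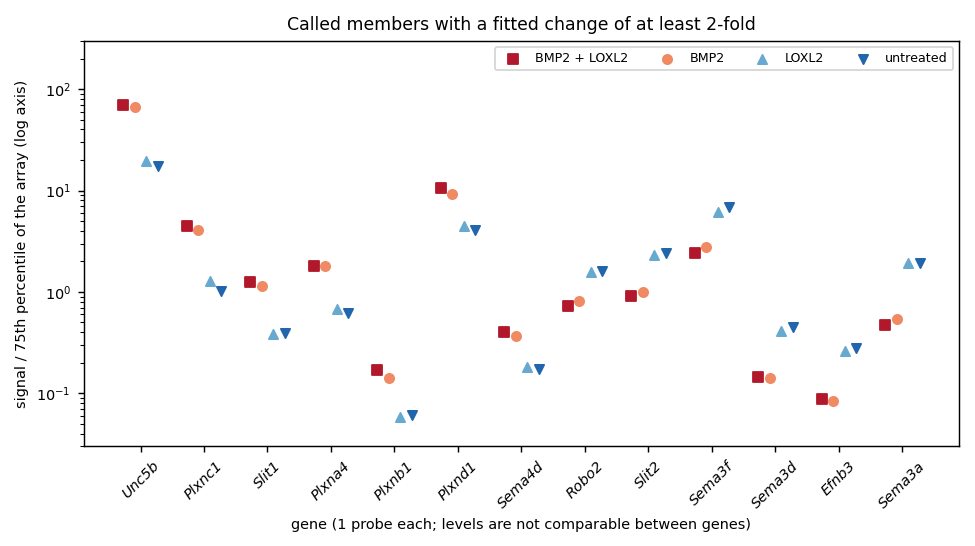
Signal of the 13 called members with a fitted change of at least 2-fold, on a log axis in multiples of the 75th percentile of the array, with 1 point per array. In each gene the squares and circles (arrays with BMP2) lie on one side of the triangles (arrays without it), from Unc5b at 70.2, 67.1, 19.8 and 17.5 to Sema3a at 0.473, 0.540, 1.93 and 1.94. These genes were picked by their change. Of all genes, 38.1% have both arrays with BMP2 above both without it and 32.8% below.

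Among netrin genes the receptor Unc5b rose, 1 of 3 Unc5 receptors measured. Unc5b, a repulsive netrin receptor also known from endothelial tip cells, was at 70.2 P75 units with BMP2 plus LOXL2 and 67.1 with BMP2, against 19.8 with LOXL2 and 17.5 untreated. It rose by 1.88 ± 0.06 (limma adjusted p = 0.0206), or 3.69-fold, and the probe lies at chr10:60225398-60225457 on mm9. Its ligand Ntn1 was at 0.386 and 0.408 P75 units on the combined and BMP2 arrays, against 0.434 with LOXL2 and 0.368 untreated. These groups overlapped, and the change of -0.01 had a 95% interval from -0.38 to 0.36 (adjusted p = 0.954). Unc5c had 0.46 ± 0.08 (adjusted p = 0.0543), and its probes had 0.46 and 0.32. Unc5a had 0.20 ± 0.21 (adjusted p = 0.527). A further netrin, Ntn3, which was listed among the partners, fell by 0.67 ± 0.06 (adjusted p = 0.029).

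The Slit ligands moved in opposite directions. Slit1, best known from the nervous system, was at 1.25 P75 units with BMP2 plus LOXL2 and 1.15 with BMP2, against 0.384 with LOXL2 and 0.392 untreated. It rose by 1.62 ± 0.07 (limma adjusted p = 0.0206), or 3.08-fold. Slit2, a repellent of axons and migrating cells, was at 0.914 and 0.991 P75 units on the combined and BMP2 arrays, against 2.32 with LOXL2 and 2.40 untreated. It fell by 1.31 ± 0.06 (adjusted p = 0.0206), or 2.48-fold. Neither gene showed an overlap between arrays with and without BMP2, where 38.1% of all genes were above and 32.8% below without overlap. Slit3, which osteoblast-lineage cells of mice secrete and which acts on bone vessels, was at 1.28 and 1.42 P75 units on the combined and BMP2 arrays, against 1.58 with LOXL2 and 1.66 untreated. Its change was -0.27 ± 0.06 with an adjusted p = 0.0729.

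Of the Slit receptors, Robo2 was at 0.726 P75 units with BMP2 plus LOXL2 and 0.815 with BMP2, against 1.57 with LOXL2 and 1.60 untreated. Robo2 fell by 1.04 ± 0.07 (limma adjusted p = 0.0245). Its other probes had -1.07 ± 0.06 (adjusted p = 0.0314 over probes) and -0.67 ± 0.17 (adjusted p = 0.107), all in the same direction. Robo1 was at 2.91 and 3.05 P75 units on the combined and BMP2 arrays, against 3.60 with LOXL2 and 3.51 untreated. Its change was -0.26 ± 0.06 with an adjusted p = 0.0868.

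No A ephrin, the GPI-anchored group, passed the test in limma. In this group 3 of 5 had an unadjusted p under 0.05, as did 10323 of all 24041 genes. The A ephrin changes ran from -0.34 for Efna4 to 0.33 for Efna1. Normexp background correction and the trended, robust variance model called more members, as given under the dependence on processing. The transmembrane B ephrins differed from each other. Efnb3, a midline cue of the spinal cord, was at 0.0873 P75 units with BMP2 plus LOXL2 and 0.0836 with BMP2, against 0.262 with LOXL2 and 0.281 untreated. It fell by 1.67 ± 0.07 (limma adjusted p = 0.0206), or 3.18-fold, and by 1.02 with normexp background correction. Efnb2 was at 3.57 and 3.48 P75 units on the combined and BMP2 arrays, against 2.58 with LOXL2 and 2.46 untreated. It rose by 0.48 ± 0.05 (adjusted p = 0.0355), and its other probe had 0.20 ± 0.10 (adjusted p = 0.253 over probes). Efnb1, which shapes the skull and face, was at 9.18 and 8.75 P75 units on the combined and BMP2 arrays, against 8.49 with LOXL2 and 8.92 untreated. These groups overlapped, with a change of 0.04 and a 95% interval from -0.18 to 0.27.

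**Figure D4:**
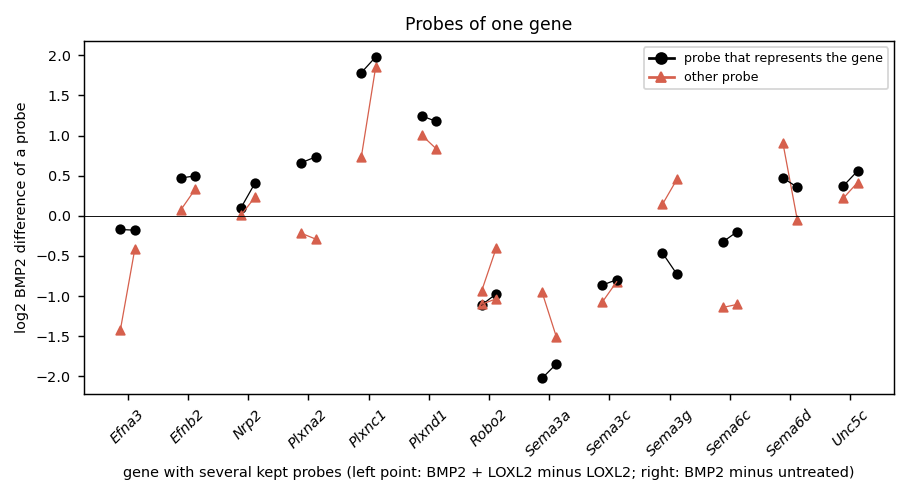
BMP2 difference of every kept probe in the 13 members with several kept probes, on the log2 scale. The left point of a pair is BMP2 plus LOXL2 minus LOXL2 and the right one BMP2 minus untreated, circles mark the probe that stands for the gene and triangles the others. Probes of Plxna2 and Sema3g lie on opposite sides of 0, and those of Sema6c lie near -0.26 and -1.12.

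Known ligand and receptor pairs were set side by side in fitted log2 changes. Sema4d and its receptor Plxnb1 both rose, by 1.10 and 1.36. Slit2 and Robo2 both fell, by 1.31 and 1.04, while Slit1 rose by 1.62. Sema3e fell by 0.65 where Plxnd1 rose by 1.21, and Sema3a fell by 1.94 where Plxna4 rose by 1.47 and Nrp1 had 0.48. Sema5a had -0.45 and Plxnb3 -0.85. Sema7a had -0.68 without passing the test, and Plxnc1 rose by 1.88. Ntn1 had -0.01, and Unc5b rose by 1.88. In other pairs the receptor did not pass the test. Sema3f fell by 1.33 and Nrp2 had 0.26, while Sema6d rose by 0.41 and Plxna1 had -0.16. Efnb2 rose by 0.48 and Ephb4 had -0.26, and the Slit receptor Robo1 had -0.26. With normexp background correction Plxnb1 had 0.63, and the change of the dim Plxnb3 has no exact size. Joint change within pairs was not tested.

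The BMP2 response was also read from the pairs of arrays, which share no array and have no test. Under LOXL2, 7 members were at least 2-fold higher with BMP2 and 7 lower, against 2.86% and 3.84% of all genes. Without LOXL2 7 were higher and 5 lower, against 2.97% and 3.77%. Both arrays with BMP2 were above both without it for 18 members and below both for 23, and in 7 the groups overlapped. Over all genes these shares were 38.1% and 32.8%. For Sema3a the difference was -2.03 under LOXL2 and -1.85 without it. Unc5b had 1.83 under LOXL2 and 1.94 without it, Plxnc1 had 1.78 under and 1.98 without it, and Slit1 had 1.70 under and 1.55 without it. For the 22 called members, leaving out any array moved the change by at most 1.21 times, with no change of sign. The change is then the difference of the pair that is still whole, so this repeats the pairs and adds no separate support. The fit also takes its residual from the difference between the pairs, so calling favours members whose pairs are alike.

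**Figure D5:**
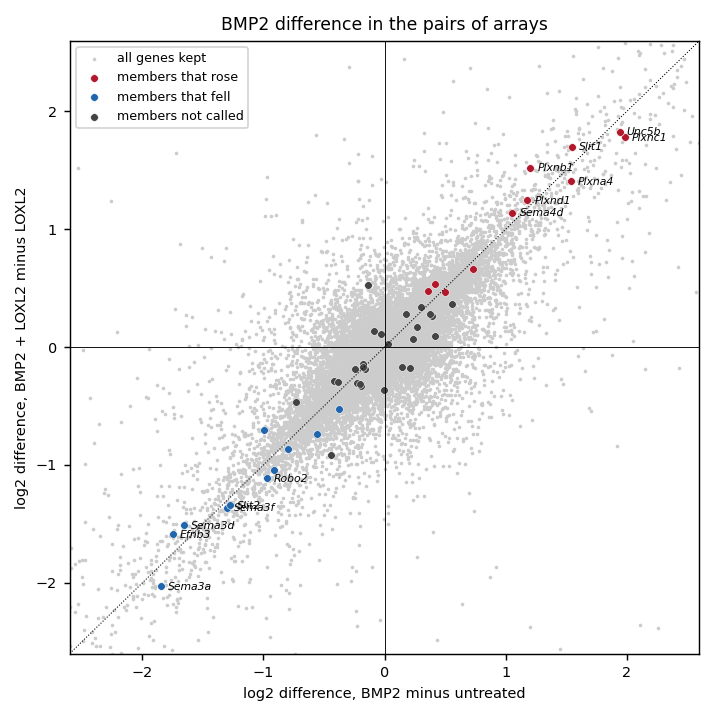
BMP2 difference on the log2 scale in the pair of arrays without LOXL2 (horizontal axis) and the pair with LOXL2 (vertical axis). Grey points are genes kept within the plotted range, coloured points are the 48 guidance genes, and the dotted line marks equal differences. Called members lie along the line, from Sema3a at -2.03 under LOXL2 and -1.85 without it to Unc5b at 1.83 under LOXL2 and 1.94 without it. The fit takes its residual from the distance to this line, so the calling itself favours members near it.

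LOXL2 changed 0 of the 48 members in limma, and 0% of all genes passed, with 3 members and 1485 of all genes at an unadjusted p under 0.05. The trended and robust variance model also called 0 members, and 14 genes in all. Those 3 members were Plxnb3, not above background with BMP2 alone, with a fitted change of 0.44, Sema6a with 0.26 and Sema3f with -0.19. The median over the members was 0.01, and the fitted changes ran from -0.34 for Sema7a to 0.44. No probe that stands for its gene reached a 2-fold LOXL2 difference in a single pair. The other kept probe of Plxnc1 did, with 1.16 without BMP2, where it was at 0.354 P75 units with LOXL2 and 0.159 untreated, and it had 0.03 under BMP2. Over all genes 0.549% were that much higher and 0.574% lower under BMP2, and 0.458% higher and 0.42% lower without BMP2. Among probes that stand for a gene, and where both arrays of a pair were above background, the largest LOXL2 difference was -0.58, that of Sema7a under BMP2. The BMP2 difference under LOXL2 minus that without it stayed below 1 on the log2 scale for the probe that stands for each member, where 1.15% of all genes reached it in each direction. Its largest sizes there were 0.66 for Unc5a and -0.47 for Sema7a, while the other probe of Plxnc1 had -1.13 and that of Efna3, above background on 2 arrays, -1.01.

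Partners of these families were counted from a list of 71 genes, of which 65 were kept. With BMP2 12 rose and 13 fell (18.5% and 20.0%), beside 10.3% and 9.97% of all genes, with a median of -0.04. Of the 65, 2 (Epha8 and Draxin) passed the filter only through the 2 arrays that had BMP2, where they are high, and without them 10 of 63 rose. Of 11 Eph receptors 1 rose and 3 fell, and none of the 10 others than Epha8 rose. Epha1 fell by 1.78 ± 0.11 (limma adjusted p = 0.0245). Epha8 was not well above background on either array without BMP2 and with BMP2 its signal was at least 7.37-fold higher (adjusted p = 0.0498, from a fit that includes those dim values). Ephb4, the receptor of Efnb2 on osteoblasts, had -0.26 with an adjusted p = 0.0706. Among 14 other netrin and Slit partners 4 rose and 4 fell. Flrt3, a membrane ligand of Unc5 receptors, fell by 1.23 ± 0.06 (adjusted p = 0.0216), and Draxin, a secreted netrin-binding cue, was at least 1.98-fold higher in BMP2 cultures than in those without it, where it lay below background (adjusted p = 0.0231, likewise).

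Of 12 genes listed as semaphorin co-receptors 3 rose and 3 fell (25% each, beside 10.3% and 9.97% of all genes). The largest change was that of Plxdc1, which rose by 3.18 ± 0.11 (limma adjusted p = 0.0206) and has a plexin-like domain but is known as a marker of tumour endothelium. The proteoglycan Cspg4 rose by 1.24 ± 0.05 (adjusted p = 0.0206). Of 28 intracellular effectors 4 rose and 3 fell. The largest rise there was 0.81 for Ngef, an exchange factor downstream of Eph receptors, and the largest fall 0.84 for Crmp1, a cytoplasmic mediator of Sema3a signalling.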

How the data were processed

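Each treatment has 1 array, whose deposited spot intensity values the authors extracted with Agilent software (Feature Extraction, version 10.7.3.1, as the submitters' processing notes state). Per the file headers, local background was subtracted, spatial trends were removed and a surrogate stood in for signals not above background. Labelled RNA came from 100 ng of total RNA with Cy3, per the labels' protocols. Non-uniform and population outlier spots (109 to 144 per array) were left out, and no spot was saturated. Deposited intensities were put on the log2 scale, the 75th percentile of the array was subtracted, and the spots of a probe were averaged. The deposited value table is unscaled, on the linear scale, and equalled the mean spot intensity within 0.1% for 99.52% to 99.53% of probes. Names were updated through RefSeq accessions of GRCm38.p6 for 26762 probes, and 28919 kept the name in the file.

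An additive model of BMP2 and LOXL2 was fitted over all 24041 genes with limma 3.58.1 under R 4.3.3 (two-sided, adjusted over all genes). It leaves 1 residual degree of freedom, the interaction, to which the empirical Bayes step added 1.72. Effects had a median SE of 0.0615 (log2). Folds written as at least set the dim side to the lowest signal above background on its array. The number of arrays limits the precision. All arrays were on 1 slide, so that a treatment cannot be told apart from the place of its array.

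The members, lists and rules were chosen with earlier results of these data known. Array values are given for members called with at least 2-fold change and for Sema3a, Sema4d, Plxna1, Plxnb1, Nrp1, Ntn1, Unc5b, Slit3, Robo1, Robo2, Efnb1 and Efnb2. Other called members are named with their change, and those not called by counts and range, some also by name. Sema7a is given by array although the rule did not ask for it, chosen after its values were seen. Named partners were called with at least 2-fold change, except Ephb4, Ntn3, Ngef and Crmp1, chosen after their values were seen. Promoter motifs were searched in the first 250 bases of each RefSeq window.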

Additional observations from a re-analysis of the deposited data

Results flagged for a closer look

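In 5 members the BMP2 difference between single arrays had opposite signs without and under LOXL2, on the log2 scale. The difference between the pairs was not tested. Under LOXL2 it was 0.53 for Unc5a, against -0.13 without LOXL2. Sema6b had -0.17 under LOXL2 and 0.21 without it, and Ntn1 had -0.17 under LOXL2 and 0.15 without it. For Sema4g the values were 0.14 under LOXL2 and -0.084 without it, and for Efnb1 0.11 under LOXL2 and -0.027 without it. None of these 5 was called with BMP2.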

How the results depend on the processing

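No sign was turned among the 22 members called with BMP2 under any alternative run. Calls depended on the filter and the variance model. With no filter on dim probes, 0 members rose and 0 fell in limma, and 0 partners rose and 0 fell. An unadjusted p under 0.05 was then found for 31 of 51 members and for 9259 of all 35077 genes. The smallest adjusted p of any gene was then 0.09, over 35077 genes tested, and the cause was not tested. Normexp background correction kept all 22 calls but made 4 changes over 1.5 times smaller, those of Plxnb3 (-0.22), Plxnb1 (0.63), Sema3e (-0.37) and Efnb3 (-1.02). It called 16 members up and 19 down and 20 partners up and 19 down. The trended, robust variance model kept them too, with 17 members up and 20 down and 21 partners up and 21 down. The shares of all genes called were 37.8% and 43.2% with those settings. Quantile normalization, median centring and the deposited value table kept 21 of 22, each losing Sema6d. With each probe fitted on its own 19 were kept, and Sema5a, Sema6d and Nrp1 were lost. With the mean of a gene's probes 18 were kept, and Sema5a, Sema6d, Plxna2 and Efnb2 were lost. Requiring a signal above background on all 4 arrays removed Plxnb3 and kept the other 21. Under every alternative LOXL2 changed 0 members. Leaving out an array leaves no residual degree of freedom, so it gives values and no count. No paired analysis was possible because the labels give no replicate numbers to use as a block, and matching by LOXL2 level is already part of the additive model. Dim probes such as Plxnb3 limit what can be read from their changes.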
